A study of Mus musculus with 10 samples.

Results

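Of the 18001 H3K4me3 peaks of crotonate-treated forebrain neural progenitors, 652 were chosen by their presence or absence in 3 peak lists: they lay on chromosomes 1 to 19, touched no H3K4me3 peak of the control cells and touched no H3K27me3 peak of the treated cells. These new H3K4me3 peaks outside H3K27me3 were mostly short and weak, and they were mostly placed on chromatin that already carried acylation marks. In control cells 498 of the 652 (76.4%, 95% interval 72.9 to 79.6) already touched a peak of H3K9cr or H3K27ac. That share was lower than in 2 other sets of H3K4me3 peaks outside H3K27me3. It was 98.0% for those found in both treatments within the same range of strength. Their median fold enrichment was higher, 9.04 against 4.90. It was 97.8% for those found in control only, which had their H3K4me3 in the treatment scored here. Of the 652, 108 (16.6%) lay within 1 kb of a start of a protein-coding gene. The strongest ones at gene starts of known strand included *Il12b*, *Lbhd2*, *Trim6*, *Atp8b3*, *Btn2a2* and *Col6a2*. The beta protocadherin cluster held the longest row of new peaks. A peak counted as touching another when they shared at least 1 bp.

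The cells were neural stem and progenitor cultures made from E13.5 mouse forebrain and grown with epidermal and fibroblast growth factors. Control cultures were given water and treated ones 10 mM crotonate, an unsaturated short-chain fatty acid, for 24 h. Native chromatin immunoprecipitation, in which chromatin is not crosslinked, was done for H3K4me3, H3K9cr (crotonylated lysine), H3K27ac and H3K27me3 in each treatment. Every mark and treatment had 1 library and 1 deposited peak list, so no difference below has a replicate check and no test between treatments was possible. Both groups were cultured primary cells from the same source, with no genotype given that separates them, and pooling of embryos is not stated in the sources used here. Per the labels the H3K4me3 antibody had 1 catalogue number but a different vendor name in each treatment, so antibody supply and treatment cannot be told apart.

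H3K4me3 is laid down by Set1 and MLL-type methyltransferases and is highest at active or poised promoters, most of which lie in CpG-rich DNA. Weak, narrow H3K4me3 also occurs at enhancers. H3K27ac and H3K9cr are written by acyltransferases at active promoters and enhancers, and crotonate supplies cells with crotonyl-CoA for crotonylation. H3K27me3 is the repressive mark of Polycomb complexes, and together with H3K4me3 it marks many developmental genes in stem cells.

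For 6 genes the new peak touched the RefSeq promoter window (GRCm38.p6), which runs from 250 bases before to 50 after the start. The 250 bases upstream of the start are printed 5′ to 3′ on the gene's strand. The first 4 show promoters of strong new peaks whose table entry is a single start at the annotated 5′ end, with every CpG in capitals to show how many each held and where.
Lbhd2, chr12:111406559-111406808, plus strand: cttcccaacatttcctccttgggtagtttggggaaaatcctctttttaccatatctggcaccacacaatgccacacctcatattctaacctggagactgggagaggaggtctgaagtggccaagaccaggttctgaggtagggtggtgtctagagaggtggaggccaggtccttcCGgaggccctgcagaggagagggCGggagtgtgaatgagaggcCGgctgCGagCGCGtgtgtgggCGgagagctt
Trim6, chr7:104218545-104218794, plus strand: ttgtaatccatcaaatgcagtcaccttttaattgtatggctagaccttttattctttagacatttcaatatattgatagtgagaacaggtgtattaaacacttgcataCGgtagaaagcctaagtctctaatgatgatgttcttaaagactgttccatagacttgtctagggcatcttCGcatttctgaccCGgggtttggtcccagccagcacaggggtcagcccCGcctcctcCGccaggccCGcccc
Btn2a2, chr13:23488858-23489107, minus strand: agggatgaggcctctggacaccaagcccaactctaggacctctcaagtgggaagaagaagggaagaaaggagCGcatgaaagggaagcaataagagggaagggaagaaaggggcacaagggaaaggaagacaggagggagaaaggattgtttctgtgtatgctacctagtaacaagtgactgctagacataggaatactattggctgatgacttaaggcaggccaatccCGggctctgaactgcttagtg
Bdh2, chr3:135280971-135281220, plus strand: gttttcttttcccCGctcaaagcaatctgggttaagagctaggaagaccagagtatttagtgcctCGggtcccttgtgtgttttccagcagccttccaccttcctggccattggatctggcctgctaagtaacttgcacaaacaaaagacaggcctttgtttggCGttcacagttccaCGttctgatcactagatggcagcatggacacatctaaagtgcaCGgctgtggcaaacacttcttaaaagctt
The CpGs of *Lbhd2* and *Trim6* sat mostly in the bases next to the start, and *Btn2a2* held 2 in the whole stretch. These 4 held 2 to 7 CpGs upstream. Windows of other strong peaks that are not printed varied more widely. *Atp8b3* held 13, the windows of *Plin5* 14 and 11, those of *Col6a2* 14 and 6, *Ablim1* 5 and *Schip1* 1. The other two promoters carried a known core or response element, shown in capitals: the cAMP response element TGACGTCA of *Scg2*, 68 to 61 bases upstream, and the TATAAA box of *Cxcl3*, 30 to 25 bases upstream.
Scg2, chr1:79440027-79440276, minus strand: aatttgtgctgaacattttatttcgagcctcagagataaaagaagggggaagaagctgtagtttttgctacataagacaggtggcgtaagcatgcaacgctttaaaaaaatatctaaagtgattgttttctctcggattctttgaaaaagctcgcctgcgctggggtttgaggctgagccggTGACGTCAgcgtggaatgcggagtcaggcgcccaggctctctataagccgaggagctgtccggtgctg
Cxcl3, chr5:90785851-90786100, plus strand: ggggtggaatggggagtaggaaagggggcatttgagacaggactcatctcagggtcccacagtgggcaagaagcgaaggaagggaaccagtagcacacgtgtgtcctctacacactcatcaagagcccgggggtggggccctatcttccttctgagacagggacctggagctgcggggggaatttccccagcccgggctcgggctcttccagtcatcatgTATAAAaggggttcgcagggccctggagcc

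The labelled cell type was checked on marker genes. All 12 markers of neural stem and progenitor cells had H3K4me3 and H3K27ac peaks at a start in both treatments, 0 of 5 microglial markers had H3K4me3 in either, and 1 of 4 endothelial and 1 of 4 astrocyte markers had it in both. Markers of other types carried H3K4me3 too: 5 of 5 for the oligodendrocyte lineage and 4 of 5 for neurons in both treatments, and 3 of 5 for fibroblasts and mural cells in control and 2 after crotonate. Control H3K27ac was at 4 of 5 oligodendrocyte, 3 of 4 astrocyte and 3 of 5 neuronal markers. It was at 1 of 5 microglial, 1 of 4 endothelial and 1 of 5 fibroblast and mural markers. Control H3K27me3 was at 7 of the 12 progenitor markers. Of all these markers only *Snap25*, a neuronal one, had a new peak. The part of other cell types in the results was not tested. Bulk lists cannot separate a mark carried by more cells from more of the mark per cell. Read depth is unknown. A stand-in for it, the lowest background pileup that any peak of a list implies, ran from 2.67 to 3.74 over the 8 lists, and was 2.91 in control and 2.87 in crotonate H3K4me3.

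The rule used the H3K4me3 and crotonate H3K27me3 lists, so the following values describe the selection and support nothing by themselves. Of 17377 autosomal crotonate H3K4me3 peaks, 1206 (6.94%) were new. Of the 13061 outside H3K27me3, the 652 made up 4.99%. The width of the 652 ran from 240 to 1604 bp with a median of 340 bp, against 1605 bp for the 12409 shared peaks outside H3K27me3. Their fold enrichment, the authors' ratio of summit pileup to local background, had a median of 4.90 and ran from 2.44 to 21.9, against a median of 127 in shared peaks. By the authors' −log10 q-value the middle new peak stood at percentile 5.36 of the crotonate list. A total of 174 peaks (26.7%) had a −log10 q under 5, and 52 had a fold enrichment of at least 10. The new peaks nearest to the limit of the rule lay 8, 37 and 61 bp from a control peak and had fold enrichments of 3.77, 6.20 and 3.61. Peaks just outside it overlapped a control peak by 41, 47 and 89 bp and had fold enrichments of 6.71, 3.61 and 3.87.

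Other H3K4me3 peaks, in 3 sets, were compared with the new ones for the other marks. The first held the 2141 shared peaks outside H3K27me3 whose fold enrichment fell within the range of the new peaks, with a median of 9.04 and a median width of 571 bp. The second held 407 control H3K4me3 peaks outside control H3K27me3 that had no partner after crotonate, here called lost, with a median fold enrichment of 4.85. The last held 554 new peaks that did touch crotonate H3K27me3, with a median of 5.27. Gained, lost and new refer to the lists only, since a peak just under the calling limit is absent from a list. A fold enrichment given for another mark is that of the touching peak with the highest −log10 q. It belongs to the summit of that peak, which may lie outside the new peak.

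Most new peaks lay on crotonylated and acetylated chromatin, and less often so than shared or lost peaks of similar strength. In control cells 483 of the 652 (74.1%, interval 70.5 to 77.4) touched H3K9cr, and after crotonate 560 did (85.9%, 83.0 to 88.5). H3K27ac was touched by 381 in control (58.4%, 54.5 to 62.2) and by 377 after crotonate (57.8%, 53.9 to 61.6). Among shared peaks of similar strength the control shares were 97.9% for H3K9cr and 87.0% for H3K27ac, and among lost peaks 96.6% and 90.4%. New peaks inside H3K27me3 differed in the other direction, with 33.2% and 4.69%. The lost peaks had their H3K4me3 in control. After crotonate, where it was absent, 93.4% of them touched H3K9cr and 85.3% H3K27ac. The intervals of the new and the shared set did not overlap for either acylation in either treatment. All intervals here are exact Clopper-Pearson 95% intervals, which cover counting error only and treat neighbouring peaks as independent.

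**Figure D1:**
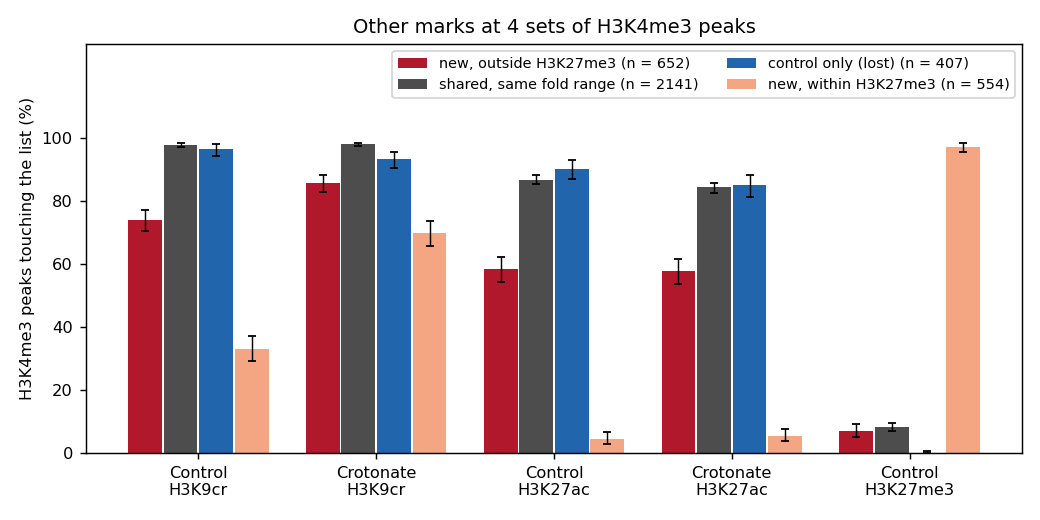
Share of H3K4me3 peaks (vertical axis, percent) that touch each of 5 other lists (horizontal axis), for new peaks outside H3K27me3 and 3 comparison sets; error bars are exact 95% intervals for counting error. New peaks reached 74.1% for control H3K9cr and 58.4% for control H3K27ac, below the shared peaks of the same fold range at 97.9% and 87.0%; the lost set has no control H3K27me3 by its definition.

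H3K9cr differed more between the treatments at these sites than H3K27ac did. Of the 169 new peaks without control H3K9cr, 101 (59.8%, 52.0 to 67.2) touched it after crotonate. Over all autosomal crotonate H3K4me3 peaks that lacked control H3K9cr this share was 61.5%, so the gain at new peaks was no larger than the background. Those 763 peaks include the 169 themselves and 370 new peaks within H3K27me3, so the 2 shares are not independent. H3K27ac was gained at 44 of 271 (16.2%, 12.1 to 21.2), beside a background of 15.6%. In shared peaks of similar strength the gains were 57.8% for H3K9cr and 23.3% (18.5 to 28.7) for H3K27ac. The background also holds peaks within H3K27me3, where new peaks gained H3K27ac at 2.46%. Losses stood further from their background shares. Control H3K9cr was lost at 24 of 483 new peaks (4.97%, 3.21 to 7.30), against a background of 0.518% and 0.954% in shared peaks of similar strength. Control H3K27ac was lost at 48 of 381 (12.6%, 9.44 to 16.4), against a background of 3.4% and 6.39% in the similar shared peaks. At the lost H3K4me3 peaks the shares were 4.83% for H3K9cr and 7.88% for H3K27ac.

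The treatments in which each site carried the 2 acylations gave a small number of recurrent patterns. At 320 of the 652 (49.1%, 45.2 to 53.0) both acylations were present in both treatments, against 80.9% of similar shared peaks and 3.25% of new peaks within H3K27me3. The next pattern, H3K9cr after crotonate only and no H3K27ac in either treatment, held 79 peaks (12.1%). A further 76 (11.7%) had H3K9cr in both treatments and no H3K27ac, and 59 (9.05%) touched neither acylation in either treatment. Only 12 peaks gained both acylations together. The pattern went along with position: 26 of the 79 with H3K9cr after crotonate only lay at a gene start (32.9%), and 40 of the 320 with both marks throughout did (12.5%).

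**Figure D2:**
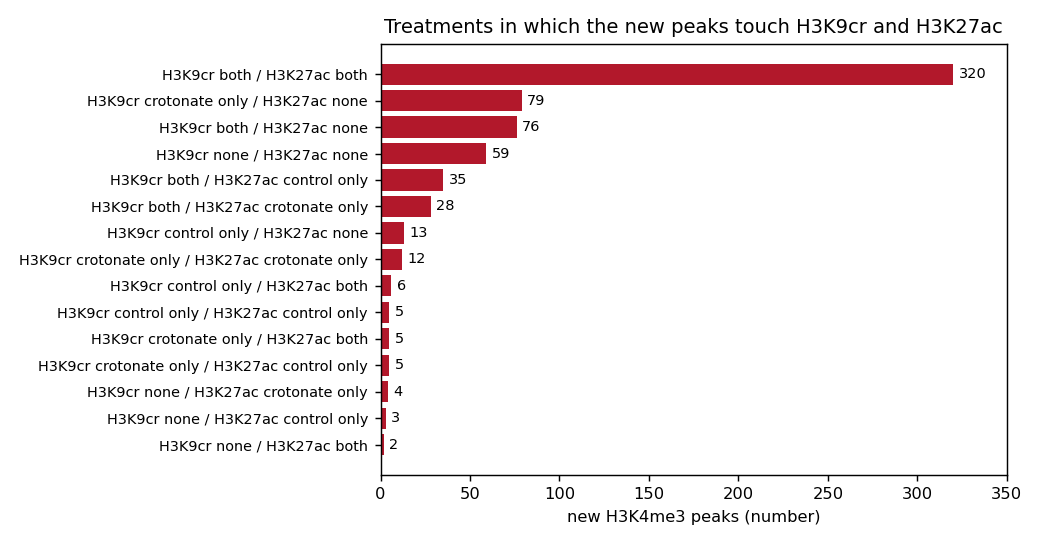
Number of new H3K4me3 peaks (horizontal axis) in each combination of treatments in which the peak touches H3K9cr and H3K27ac (vertical axis). Both marks in both treatments is the most frequent combination with 320 peaks, followed by 79, 76 and 59 peaks in the next 3 combinations.

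The acylation peaks under the new H3K4me3 peaks stood somewhat below the middle of their list for H3K9cr and high for H3K27ac. The control H3K9cr peaks touched had a median percentile of 42.5 by −log10 q in their own list, and the crotonate H3K9cr peaks 45.4. Their median fold enrichment was 10.1 in control against 14.7 for the whole list, and 7.61 against 9.42 after crotonate. Their median width was 816 bp against 1162 bp in control and 676.5 bp against 973 bp after crotonate. The H3K27ac peaks touched stood at 65.6 in control and 70.2 after crotonate. They were also wide, with a median of 1404 bp in control against 881 bp for the whole control list, and 1072 bp against 625 bp after crotonate. Wide peaks are touched more easily, and the part of width in these percentiles was not tested. The summit of the new peak lay a median of 65 bp from the control H3K9cr summit and 150 bp from the control H3K27ac summit.

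Stronger new peaks carried H3K27ac less often, while the shares of shared peaks stayed level over the same ranges. Among 343 new peaks with a fold enrichment under 5, 67.6% touched control H3K27ac. The share was 51.0% among the 257 with a fold of 5 to 10 and 34.6% among the 52 with a fold of at least 10. Shared peaks in the same 3 ranges stood at 89.1%, 86.9% and 86.2%. After crotonate the new peaks gave 64.7%, 53.7% and 32.7%. Control H3K9cr fell less steeply, from 78.1% to 70.4% and 65.4%, and crotonate H3K9cr stayed at 84.8%, 87.2% and 86.5%. Among the 20 strongest new peaks 10 had H3K9cr in both treatments and no H3K27ac in either, a pattern held by 76 of all 652. The ranges were cut on the same fold enrichment that selected the peaks for calling, so no test is attached to the trend.

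**Figure D3:**
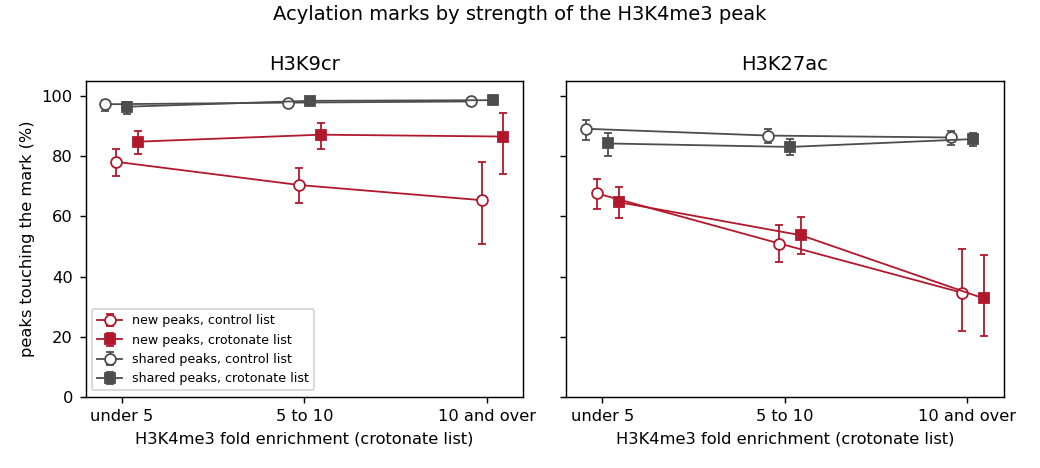
Share of peaks touching H3K9cr (left) and H3K27ac (right, both axes in percent) in 3 ranges of H3K4me3 fold enrichment, for new peaks and for shared peaks of the same ranges; open circles are the control list, filled squares the crotonate list, and error bars are exact 95% intervals for counting error. Control H3K27ac falls from 67.6% to 34.6% in new peaks and stays between 86.2% and 89.1% in shared peaks.

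Some of the sites had carried the Polycomb mark before treatment. Control H3K27me3 touched 46 of the 652 (7.06%, 5.21 to 9.30), near the 8.31% of similar shared peaks. All 46 lack crotonate H3K27me3 by the rule, and over all autosomal crotonate H3K4me3 peaks with control H3K27me3 that list change occurred at 19.9%. A crotonate H3K27me3 peak was often near: 26 of the 46 lay within 1 kb of a crotonate H3K27me3 peak, and the median distance was 514 bp. Of the 46, 32 touched control H3K9cr, 41 crotonate H3K9cr and 16 crotonate H3K27ac, and 12 were at a gene start. *Atp8b3*, *Plin5*, *Schip1*, *Ablim1*, *Snap25* and *Stat6* were among the genes at those starts.

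Position separated the new peaks from most H3K4me3 peaks, and less from shared peaks of their own strength. At a coding gene start, meaning within 1 kb of it, lay 108 (16.6%, 13.8 to 19.6), against 77.0% of all shared peaks outside H3K27me3, 21.1% of shared peaks of similar strength and 8.85% of lost peaks. Another 252 (38.7%) lay inside a coding gene away from its starts, and 261 (40.0%) lay elsewhere. A start of a long noncoding RNA gene was touched by 40, of which 9 are also among those inside a coding gene. The distance to the nearest control H3K4me3 peak had a median of 21968.5 bp. A control H3K4me3 peak lay within 5 kb of 163 new peaks (25%) and within 1 kb of 70. Those 163 touched control H3K27ac at 76.7% (69.4 to 82.9), and the 202 farther than 50 kb from any control H3K4me3 peak did at 50.5% (43.4 to 57.6). At gene starts 41.7% (32.3 to 51.5) touched control H3K27ac and 60.2% (50.3 to 69.5) control H3K9cr, against 61.8% and 76.8% away from starts. Crotonate H3K9cr was touched at 84.3% of the new peaks at starts and 86.2% of those away from them.

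The 108 peaks at starts touched 135 coding genes, 0.653% of the 20665 on the autosomes. With gene bodies included the number was 382 (1.85%). Of the 135 genes, 87 had no control H3K4me3 peak at any of their start windows. The strand is known for 76 of the 135, and 57 of these lacked control H3K4me3. For the other 59, chromosome 18 included, both annotated ends were used, so a peak may lie at the 3′ end. That is so for 22 names, the gamma protocadherin genes and a predicted gene model, which share 1 peak at their common 3′ end. For 67 genes the annotated position lay inside the new peak. Of the genes named below, *Fgl1*, *Olfr658*, *Abca6*, *Traf3ip2*, *Snap25*, *Pxn*, *Coq8b*, *Ifi27* and *Ifi27l2a* are also without strand. Their peak is at an annotated end that may not be the start.

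*Il12b*, which encodes a cytokine subunit made by activated myeloid cells, and *Lbhd2* had the highest H3K4me3 among the new peaks at gene starts, both with a summit pileup of 63 and a fold enrichment of 16.5. The *Il12b* peak (chr11:44398888-44399149) was 262 bp wide and ended 914 bp before the start. It was in the crotonate H3K9cr list with a fold enrichment of 10.2 and in no control list and no H3K27ac list. The *Lbhd2* peak (chr12:111406776-111407637) covered the start over 862 bp. It carried H3K9cr with 6.24 in control and 17.6 after crotonate, and H3K27ac with 3.65 and 3.26. The nearest control H3K4me3 peak was 70397 bp from the *Il12b* peak and 9453 bp from that of *Lbhd2*. The 2 genes thus shared their H3K4me3 values and differed in acylation, which *Lbhd2* already had in control.

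Several of the next strongest are known from immunity, a grouping made here by hand after the values were seen. *Trim6*, a ubiquitin ligase of the tripartite-motif family with a role in interferon signalling, had a peak of 775 bp (chr7:104218800-104219574, fold 13.2) starting 5 bp from its start. H3K9cr was absent there in control and had a fold enrichment of 9.27 after crotonate, and H3K27ac was absent in both. *Btn2a2*, a butyrophilin that restrains T cells, had H3K4me3 of 11.4-fold (chr13:23488393-23488847), H3K9cr of 11.8 in control and 9.75 after crotonate, and H3K27ac of 5.84 and 3.43. *Fgl1*, a fibrinogen-like protein secreted by liver, stood at 11.6-fold with H3K9cr of 12.2 and 10.7, and with H3K27ac of 4.38 in control only. *Traf3ip2*, an adaptor of interleukin receptor signalling, had 8.78-fold H3K4me3, with H3K9cr of 13.4 and 20.5 and H3K27ac of 9.23 and 14.1. Thus *Trim6* shared the pattern of *Il12b*, while *Btn2a2* and *Traf3ip2* already had both acylations in control cells.

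Other immune genes were picked out after their values were seen, and their new H3K4me3 peaks were weaker. *Icam4*, an adhesion molecule, had 6.66-fold H3K4me3 and H3K9cr of 16.7 in control and 10.3 after crotonate, without H3K27ac. *Stat6*, a transcription factor of interleukin signalling, had 6.45-fold H3K4me3 over 1424 bp with both acylations in both treatments and H3K27me3 of 5.42 in control. *Stat4* had 4.65-fold and *Cxcl3*, a neutrophil chemokine, 3.87-fold H3K4me3, each with H3K9cr after crotonate only. *Ifi35*, an interferon-induced gene, had 5.43-fold H3K4me3 with H3K9cr in both treatments. One peak at the interferon-induced neighbours *Ifi27* and *Ifi27l2a*, of 5.68-fold, touched no other list. Of the 34 genes in the listed inflammatory and interferon group, *Il12b* had a new peak at a start (2.94%, against 0.653% of all coding genes), and 1 gene gives no more than its own values.

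The next genes have metabolic or transport roles and were also grouped by hand. *Bdh2*, a cytosolic hydroxybutyrate dehydrogenase, had a peak of 317 bp (chr3:135281241-135281557, fold 9.55) that began 20 bp from its start. Its H3K9cr was 9.92 in control and 9.99 after crotonate, and its H3K27ac 5.59 and 5.44. Both acylations were thus listed in both treatments, and H3K4me3 at this site after crotonate only. *Plin5*, a coat protein of lipid droplets, had the same H3K4me3 fold enrichment of 9.55 (chr17:56117233-56117669) on a different background: H3K27me3 of 3.81 and no acylation in control, and H3K9cr of 5.95 after crotonate. The lipid transporter gene *Abca6* had 9.55 as well, with H3K9cr of 7.60 and 11.2 and H3K27ac of 3.89 in control only. *Abca15*, of the same transporter family, had 8.52-fold H3K4me3 and H3K9cr of 6.11 and 4.52, without H3K27ac. *Atp8b3*, a phospholipid flippase of sperm, had 12.6-fold H3K4me3 (chr10:80538900-80539170), H3K27me3 of 5.96 in control, and no acylation in either treatment. *Bdh2* was the only 1 of 53 listed lipid and acyl-CoA genes with a new peak at a start (1.89%, against the same 0.653%).

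Matrix, neural and cytoskeletal genes made up most of the remaining named starts. *Col6a2*, a chain of collagen VI, had a peak of 675 bp across its start (chr10:76623010-76623684, fold 10.8). Its H3K9cr was 5.06 in control and 8.56 after crotonate, and H3K27ac, absent in control, was 3.53. *Spp1*, which encodes osteopontin, had a weak peak of 3.87-fold, and its H3K9cr of 3.20 was in the control list only. Those were 2 of 32 genes listed for extracellular matrix and Tgfb signalling (6.25%, against 0.653% of all coding genes). So few genes give no more than their own values. *Scg2*, a secretogranin of dense-core vesicles, had 5.16-fold H3K4me3 over its start (chr1:79439649-79440047). It was the 1 gene of 22 listed for neuropeptides and hormones (4.55%, against the same 0.653%). Its H3K9cr was 5.06 and 4.04, without H3K27ac, and its promoter carries the response element printed above.

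*Snap25*, a SNARE protein of synaptic vesicle release, was the 1 of 25 listed synapse genes with a new peak at an end (4%, against 0.653% of all coding genes). Its peak (chr2:136711895-136712513, fold 8.52) lay 926 bp from the annotated end and 550 bp from a control H3K4me3 peak, so the gene had H3K4me3 before. The H3K9cr peak touched had 4.85 in control and 25.1 after crotonate, each at its own summit. H3K27ac was 6.75 after crotonate only, and H3K27me3 3.25 in control only. *Id4*, an inhibitor of neural differentiation factors, likewise had control H3K4me3. Its new peak (chr13:48260436-48260767, fold 8.07) lay 270 bp from a control peak, inside an H3K9cr peak of 86.7-fold in control and 40.0-fold after crotonate. *Schip1* and *Ablim1*, which encode cytoskeletal proteins, had control H3K4me3 at another start and H3K27me3 at this one in control. Their H3K4me3 was 9.15-fold and 9.04-fold, with H3K9cr after crotonate only at *Schip1* and both acylations throughout at *Ablim1*.

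The strongest peaks at starts that touched no other list belonged to *Olfr658*, *Sec24d*, *Zfp972*, *Akr1c13* and *Trim5*, with H3K4me3 fold enrichments of 12.1, 7.33, 7.49, 6.84 and 6.20. *Olfr658* is an odorant receptor gene, *Sec24d* encodes a coat protein of secretory vesicles, and *Trim5* is a neighbour and relative of *Trim6*. Apart from *Sec24d* they belong to families with near copies, whose reads may be split by the alignment, so their position is uncertain. *Sec24d* had control H3K4me3 at another of its starts, 1679 bp from the new peak. The lists for cholinergic, GABAergic, oligodendrocyte, astrocyte, cilium, germ line, stress and ion channel genes had 0 new peaks at a start among the 12, 21, 20, 20, 29, 27, 30 and 41 genes found. The share over all coding genes was 0.653%, at which a list of such size would mostly hold 0, so these counts show nothing about the lists. Inside gene bodies new peaks lay in *Nfia* and *Sparcl1* (astrocyte list), *Nrxn3* and *Shank3* (synapse), *Tgfb3* (matrix) and the channel genes *Kcna2*, *Kcnc1* and *Trpm3*.

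**Figure D4:**
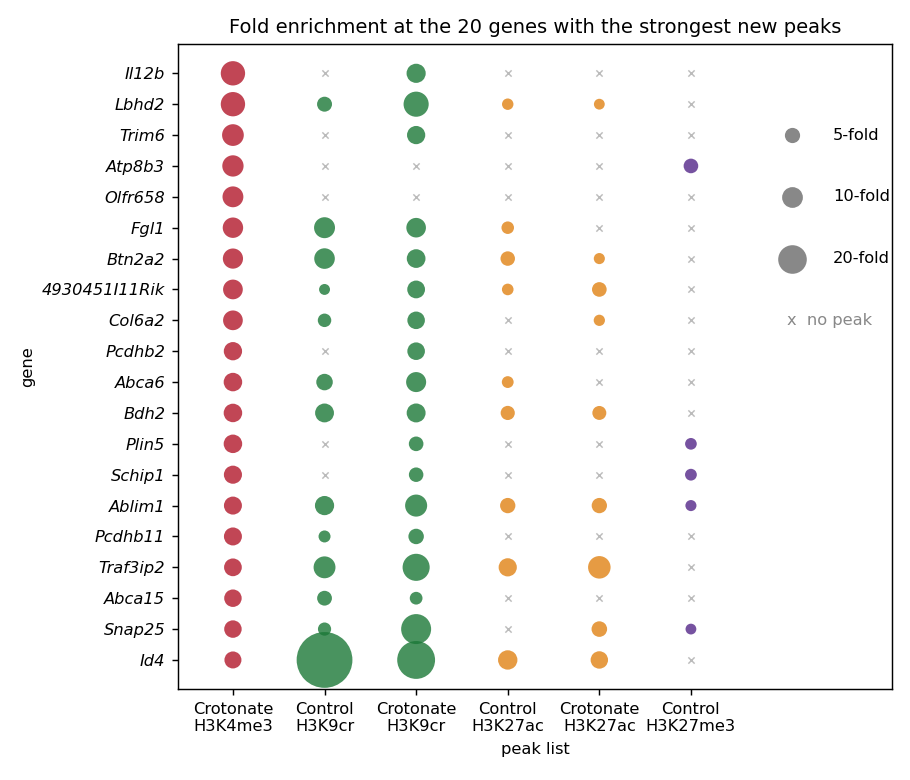
Fold enrichment (size of the dot) of the peak touching the new H3K4me3 peak in 6 lists (horizontal axis) for the 20 genes with the strongest new peaks at a start (vertical axis, strongest at the top); a cross marks that no peak is touched. H3K4me3 runs from 16.5 at Il12b to 8.07 at Id4, and the H3K9cr peak of Id4 in control reaches 86.7.

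The longest row of new peaks lay in the clustered protocadherins, adhesion proteins whose alternative promoters give neurons distinct surface identities. The cluster was singled out after its values were seen. Along 183 kb of chromosome 18, 9 beta genes (*Pcdhb2*, *Pcdhb4*, *Pcdhb5*, *Pcdhb6*, *Pcdhb10*, *Pcdhb11*, *Pcdhb14*, *Pcdhb15* and *Pcdhb16*) each had a new peak. That stretch held 9 crotonate H3K4me3 peaks, all new, and 0 control peaks. In the alpha cluster 5 genes (*Pcdha3*, *Pcdha4*, *Pcdha5*, *Pcdha7* and *Pcdha8*) had one each over 46.7 kb, again with 5 crotonate and 0 control peaks. The 14 peaks lay 0 to 59 bp from the lower annotated end of their gene and had fold enrichments of 3.87 to 9.33. None touched H3K27ac in either treatment, 6 touched control H3K9cr and 12 crotonate H3K9cr. At *Pcdhb2* H3K9cr was absent in control and 8.61-fold after crotonate, and at *Pcdhb11* it was 4.01 and 6.66.

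Windows of 1 kb either side of each gene's own lower annotated end were also examined. In them 7 of 22 beta genes had H3K4me3 in control and 16 after crotonate, and for alpha genes the numbers were 6 and 11 of 14. New peaks are absent from the control list by the rule, so these rises restate the selection and support nothing by themselves. Gamma genes had H3K4me3 at 20 of 21 in both treatments. H3K27ac was at 0 beta genes in either treatment and at 20 gamma genes in control and 19 after crotonate. The genes of a cluster resemble each other in sequence, so reads may be split between them. Chromosome 18 had the highest share of its crotonate H3K4me3 peaks among the new ones, 35 of 539 (6.49%), and chromosome 16 the lowest with 10 of 551 (1.81%). Of the 35, 14 are the alpha and beta protocadherin peaks described above. Most new peaks were otherwise scattered: with a limit of 100 kb between neighbours, 547 stood alone, and 31 pairs, 8 groups of 3, 2 of 5 and 1 of 9 were found.

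Away from gene starts the 5 strongest new peaks all had H3K9cr in both treatments and no H3K27ac in either. The first (chr9:73163151-73163500) had a pileup of 84 and a fold enrichment of 21.9, with H3K9cr of 20.3 in control and 17.8 after crotonate and with control H3K27me3. Its nearest coding gene start, that of *Rsl24d1*, was 49682 bp away. The next (chr2:74300494-74301043, fold 20.8) lay 277905 bp from the start of *Lnpk*, which encodes a membrane protein of endoplasmic reticulum junctions, and had H3K9cr of 3.91 and 6.42. The others lay within *Efcab5* (chr11:77093195-77093443, fold 18.8) and the prostaglandin transporter gene *Slco2a1* (chr9:103092382-103092726, fold 18.6), and 13360 bp from the DNA repair gene *Smug1* (chr15:103182299-103183902, fold 17.8). The last is the widest of all 652, at 1604 bp, and touched a control H3K27me3 peak of 57.1-fold, against 5.42-fold at the first. All 5 were at least 12577 bp from any control H3K4me3 peak.

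Some weaker distal peaks, chosen after their values were seen, had both acylations throughout. *Nfia*, a gliogenic transcription factor, held 3 new peaks in its body with fold enrichments of 3.18, 3.80 and 4.13, each with H3K9cr and H3K27ac in both treatments. On chromosome 13, 3 new peaks stood within 6.08 kb (chr13:84751003-84757082), at least 432295 bp from the nearest coding gene start, that of *Ccnh*. Their H3K27ac peaks had a fold enrichment of 21.6 in control. After crotonate they had 11.1 at the first and 21.2 at the others. At *Sparcl1* a new peak of 4.90-fold lay in an H3K27ac peak of 36.2-fold in control and 33.7-fold after crotonate.

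The promoter windows that touched a new peak were poorer in CpG than those with shared peaks as a whole. Most new peaks lay away from gene starts and are not covered by these windows. Among RefSeq promoter windows of 300 bases, 69 windows of 64 genes, noncoding ones included, touched a new peak. Their ratio of observed to expected CpG had a median of 0.364 (quartiles 0.233 and 0.557). A ratio of 0.6, a usual limit for CpG-rich DNA, was reached by 11 (15.9%), against 36.4% of all windows. Windows with any shared H3K4me3 peak outside H3K27me3 had a median of 0.800 with 78.9% at or above that limit. Windows with a shared peak of similar strength were close to the new ones, with 0.446 and 23.6%. New peaks within H3K27me3 stood between, with 0.618 and 54.1%. Windows without H3K4me3 had a median of 0.201 and all 31396 windows one of 0.389.

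**Figure D5:**
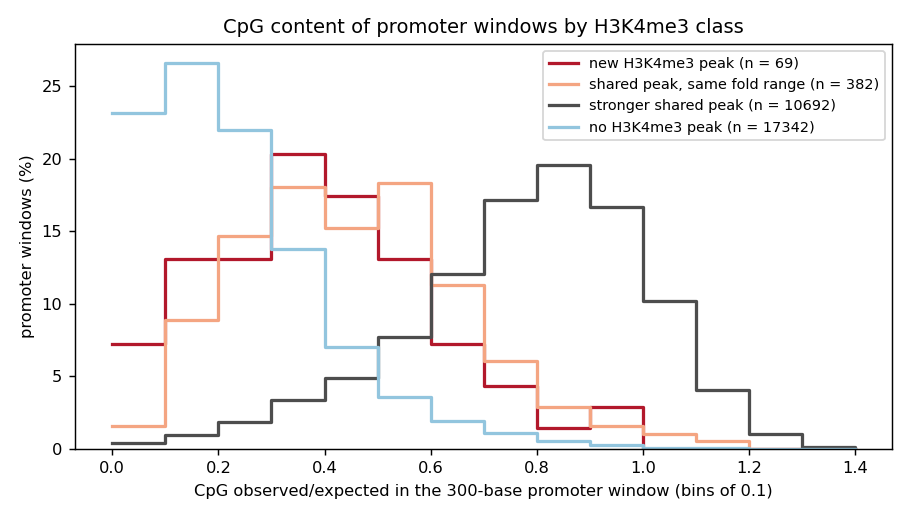
Distribution of the ratio of observed to expected CpG (horizontal axis, bins of 0.1) over RefSeq promoter windows of 300 bases that touch a new peak, a shared peak of the same fold range, a stronger shared peak, or no H3K4me3 peak (vertical axis, percent of windows in the set). The median of windows with a new peak is 0.364, between windows without a peak (0.201) and those with shared peaks (0.800).

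A set of 6 short motifs was searched on both strands of the same windows. GGGCGG, the GC box, was in 30 of 69 windows with a new peak (43.5%), against 36.0% of all windows, 67.7% of those with shared peaks and 44.8% of those with shared peaks of similar strength. TATAAA was in 4 (5.80% against 13.6% of all), CCAAT in 19 (27.5% against 37.3%) and CACGTG, the E-box of Myc-type factors, in 4 (5.80% against 7.14%). TGANTCA, the AP-1 site, was in 7 (10.1% against 7.84%). TGACGTCA was in 1, the *Scg2* window printed above (1.45% against 1.83%). A match is a run of letters and not evidence of binding.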

How the data were processed

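The submitters' processing notes name Bowtie2 2.4.1, MACS2 2.2.7.1 and GRCm38. How peaks were called, whether duplicates were removed and how the 2 inputs, not analysed here, entered the calls is not given in the sources used here. In each list the deposited pileup is a coverage signal at the summit and the deposited fold enrichment its ratio to local background, per the file headers. The deposited −log10 q-value and −log10 p-value also belong to the summit. These values are the authors' own and served to describe, rank or bin peaks within a list. Fold enrichments of the 2 treatments are printed side by side, but the lists differ in scale. The whole-list median was 14.7 in control and 9.42 after crotonate for H3K9cr, and 5.59 and 4.62 for H3K27ac. Equal folds are therefore not equal levels, and a lower fold is not a measured loss. Per the labels, antibody catalogue numbers matched between treatments, but vendor names differed between treatments for H3K4me3 and H3K27me3. For the acylations a vendor is named in control only.

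Peaks were intersected in Python 3.11.15 (pandas 2.3.3, numpy 2.4.6, scipy 1.17.1, matplotlib 3.10.9) with functions tested on simulated data, and all 652 peaks were kept. Gene starts and promoter windows came from RefSeq tables of GRCm38.p6: 16457 autosomal coding genes with strand and 4208 without, for which both annotated ends were used. The depth stand-in is the lowest value, over the peaks of a list, of the background pileup implied by pileup and fold enrichment. Intervals cover counting error only, and PCR reads lacking molecular identifiers are not independent.

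Genes were named by rule: the 20 highest −log10 q at a start, the 5 highest with H3K9cr in both treatments, with both acylations after crotonate only (0 found) and in no other list, listed genes, and the 5 highest away from starts. Alternatives were another q limit, overlap, window and peak number. The peaks, the 13 lists (366 of 378 genes found) and the rules were chosen with earlier results of these data known.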

Additional observations from a re-analysis of the deposited data

How the results depend on the processing

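Of 58 values recomputed under the alternatives, 42 stayed within the counting interval, or within 1.5 times for counts, and 16 did not. With a −log10 q of at least 5, H3K27ac was touched by 53.1% in control and 53.6% after crotonate. In another alternative the number of peaks was made equal between treatments for every mark, keeping the highest −log10 q. Then 408 new peaks and 80 genes remained, with 70.3% touching control H3K9cr, 50.2% control H3K27ac and 50.7% crotonate H3K27ac. When a partner peak counted only from 50% reciprocal overlap, there were 236 genes, 22.6% of peaks at a gene start, 81.0% and 89.2% touching H3K9cr and 67.8% and 67.2% touching H3K27ac in control and crotonate. The control H3K27me3 share was 3.46% without peaks within 1 kb of crotonate H3K27me3 and 3.99% when the mark had to cover 50% of the new peak. With windows of 2 kb, 21.8% lay at a gene start. The cause of these shifts was not tested. Using both annotated ends of every gene was added after seeing the data. No paired analysis was possible because each mark and treatment had 1 library, and read depth, which decides whether weak peaks are called, is unknown.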

Other observations

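A few more new peaks, chosen after their values were seen, are given as values only. None of the 12 listed neural stem and progenitor markers had a new peak. On chromosome 5, 5 new peaks within 95.2 kb fell in and around *Msi1*, an RNA-binding protein of neural stem cells, and *Pxn*, a focal adhesion adaptor. In *Msi1* the H3K4me3 fold enrichments were 7.74 and 6.71, and the second peak lay in H3K27ac of 22.9-fold in control and 13.3-fold after crotonate. At *Pxn* a peak at an annotated end had 4.65-fold H3K4me3 in H3K27ac of 30.2-fold and 28.3-fold. On chromosome 7, the peak at *Numbl*, which takes part in progenitor maintenance, and its neighbour *Coq8b* had 5.94-fold H3K4me3 inside an H3K9cr peak of 75.0-fold in control and 58.5-fold after crotonate, with H3K27ac of 18.5-fold in control and 13.3-fold after crotonate. Both genes had control H3K4me3, 343 bp from the new peak. *Axin2*, a feedback inhibitor of Wnt signalling, had a weak new peak of 4.13-fold with both acylations in both treatments.

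In *Plcb1*, a phospholipase gene, a new peak of 13.4-fold lay 327899 bp from any control H3K4me3 peak, with H3K9cr in both treatments and no H3K27ac. *Tgfb3* had a new peak of 4.65-fold, 1283 bp from a control H3K4me3 peak. The H3K9cr peak it touched was 4.07-fold in control and 26.3-fold after crotonate, each at its own summit.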
